A study of Caenorhabditis elegans with 16 samples.

Results

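The late-numbered microRNAs (miRNAs) of Caenorhabditis elegans were examined in small RNA recovered with chosen mRNAs. miRNAs are short RNAs that guide Argonaute proteins to partly complementary mRNAs, and their names carry a number that follows the order of their registration. The classical worm miRNAs have low numbers and came from genetics and early cloning, whereas entries from miR-784 on came mainly from deep sequencing and computational searches. Many of these later entries are known from few reads, and some are processed from introns (mirtrons) rather than from ordinary hairpins. A miRNA was counted as late-numbered when the number in its name was that of miR-784 or higher, letters and arm ignored, with miR-1829a, b and c left out. This rule uses the name alone and no measured value, and the listed names jump from miR-392 to miR-784, so that no name lies near the limit. It gave 225 of the 434 mature miRNA names in the count tables, from 136 of the 250 precursors.

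The libraries came from young adult worms that were irradiated with ultraviolet light to link RNA to bound proteins. A chosen transcript was then retrieved with biotinylated DNA probes, and the small RNA in the elution was sequenced, a method called vIPR. In the no-target control (n = 3), probes against the gfp coding sequence were used on wild-type worms (strain N2), which lack gfp. The same probes retrieved the transgene transcript gld-1::gfp from strain BS1080 (n = 2) and gfp::lin-41 from strain DG3913 (n = 1). Probes to endogenous transcripts retrieved lin-41, alg-1 and gld-1 from N2 (n = 2 each), and gld-1 also from a pair of strains edited by CRISPR in the N2 background. In the first of these the miR-84 site of gld-1 was destroyed (seed destruction, n = 2), and in the other it was converted (changed specificity, n = 2). lin-41 encodes a TRIM-NHL regulator and classical let-7 target, alg-1 an Argonaute of the miRNA pathway, and gld-1 a germline RNA-binding protein. Each of these transcripts had its own probes, unlike those of the control. When an endogenous pulldown is compared with the control or with another transcript, probe set and target change together and cannot be told apart. Nothing in the labels tells whether replicates were separate cultures, so p-values measure the spread between these libraries, which may be technical.

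The shallowest library (control replicate 3) held 12474 miRNA reads and the deepest (gfp::lin-41) 2081849, so that 3 reads, taken as the detection floor, corresponded to 0.0241% and 1.44e-04% of the reads. Intervals and floors cover counting error only. Folds and tests are on reads scaled by effective library size (TMM, trimmed mean of M values), given as normalised CPM (read counts scaled to a common library size). TMM factors spanned 0.155 to 5.31, and on plain library totals the median log2 change over all tested miRNAs against the control moved by between -0.61 (seed destruction) and -4.18 (changed specificity). A fold below is therefore a change relative to the bulk of miRNAs, and calls against the control or between pulldowns that were lost on library totals are named.

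Most late-numbered miRNAs were not seen. Of the 225, 91 had a read in any of the 16 libraries (40.4%), against 168 of the 209 other miRNAs (80.4%). Of the 91, 18 rested on a single read in the whole series and 41 never exceeded 2 reads in a library. A level of 10 reads in any library was reached by 23, and 6 were seen in every library. Late-numbered miRNAs held 10825 reads in all, beside 9045559 reads of the other miRNAs. Between 13 (control replicate 1) and 40 (gfp::lin-41, the deepest) were seen in any single library. For the remaining 134 names, a count of 0 means only that they were not detectable at these depths.

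The reads that were seen sat in few members. miR-788-5p alone held 27.5% of them, the top 3 held 49.0%, the top 5 held 62.7% and the top 10 held 85.0%. The reads shared by miR-8187-3p and miR-8188-5p (739 and 738) enter the total under both names. Both names are in the top 5 and in the band miR-8186 to miR-8212. With the pair counted once, the share of that band would be lower and the other shares higher. By number, miR-784 to miR-799 held 54.3% of the reads with 19 of 29 members seen, led by miR-788-5p (2977 reads). miR-8186 to miR-8212 held 26.7% with 15 of 56 members seen, led by miR-8191-5p (1344 reads). miR-1817 to miR-1834 held 8.73% with 9 of 22 seen, led by miR-1817 (727 reads), and miR-4920 to miR-4940 held 5.12% with 7 of 19 seen, led by miR-4932 (467 reads). miR-5545 to miR-5595 held 2.86% with 13 of 26 seen and miR-4804 to miR-4816 held 1.59% with 10 of 23 seen. The remaining bands held under 1% each. The leading members of these smaller bands were miR-4814-3p (118 reads), miR-5551-5p (96 reads), miR-2210-5p (10 reads), miR-1022-5p (9 reads) and miR-800-5p (5 reads), and no read was found for either arm of miR-2953. Of the 5 names of miR-1018, miR-1019 and miR-1020, known as worm mirtrons, 3 were seen, with 14 reads in total and at most 5 in any library. In the Ensembl annotation of WBcel235, mir-1019 and mir-1020 lie in introns, whereas mir-1018 lies in no protein-coding gene.

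Both arms were listed for 95 late-numbered hairpins. A read was seen for 62 of these, and for both arms in only 16. Among the 19 hairpins with 20 reads or more, the 5p arm was the larger in 9 and the 3p arm in 10, and in 16 the larger arm held at least 90% of the reads. A clear exception was miR-5592, whose 5p arm held 54.3% of 94 reads. Its 2 annotated precursors lie on opposite strands of the same place in the aakb-1 gene on chromosome X, so that the reads of these copies cannot be assigned to a locus. Of the 136 precursors, 134 were found by name in the Ensembl annotation of WBcel235. They lay in an intron on the strand of the host gene in 36 cases, in an intron on the other strand in 16, over an exon in 7, and in no protein-coding gene in 77.

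The summed share of late-numbered miRNAs was highest in the control and lowest in changed specificity. In the 3 control libraries it was 0.401%, 0.896% and 0.746% (mean 0.681% ± 0.254, SD, n = 3). In alg-1 it was 0.545% and 0.420% (0.482% ± 0.0883, n = 2), in seed destruction 0.213% and 0.395% (0.304% ± 0.129, n = 2), in gld-1 0.377% and 0.0605% (0.219% ± 0.224, n = 2) and in lin-41 0.0748% and 0.229% (0.152% ± 0.109, n = 2). gfp::lin-41 had 0.169% (no replicate), gld-1::gfp had 0.0765% and 0.104% (0.0902% ± 0.0193, n = 2), and changed specificity had 0.0107% and 0.0238% (0.0172% ± 0.00927, n = 2). Both alg-1 libraries lay above control replicate 1 and below the other controls, and the libraries of every other pulldown lay below all 3 controls. Scaling changed this order. As summed normalised CPM the controls had 922, 1870 and 1403, below both lin-41 libraries (2908 and 3654), both alg-1 libraries (3172 and 3261) and gfp::lin-41 (5034), and above both changed specificity libraries (688 and 675). Some of these sums rested on few members. miR-788-5p alone gave 3746 in gfp::lin-41. In alg-1 miR-795-5p gave 1349 and 1470, and miR-786-3p gave 899 and 923. In lin-41 the leading member held 19.5% and 24.3% of the late-numbered reads.

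**Figure D1:**
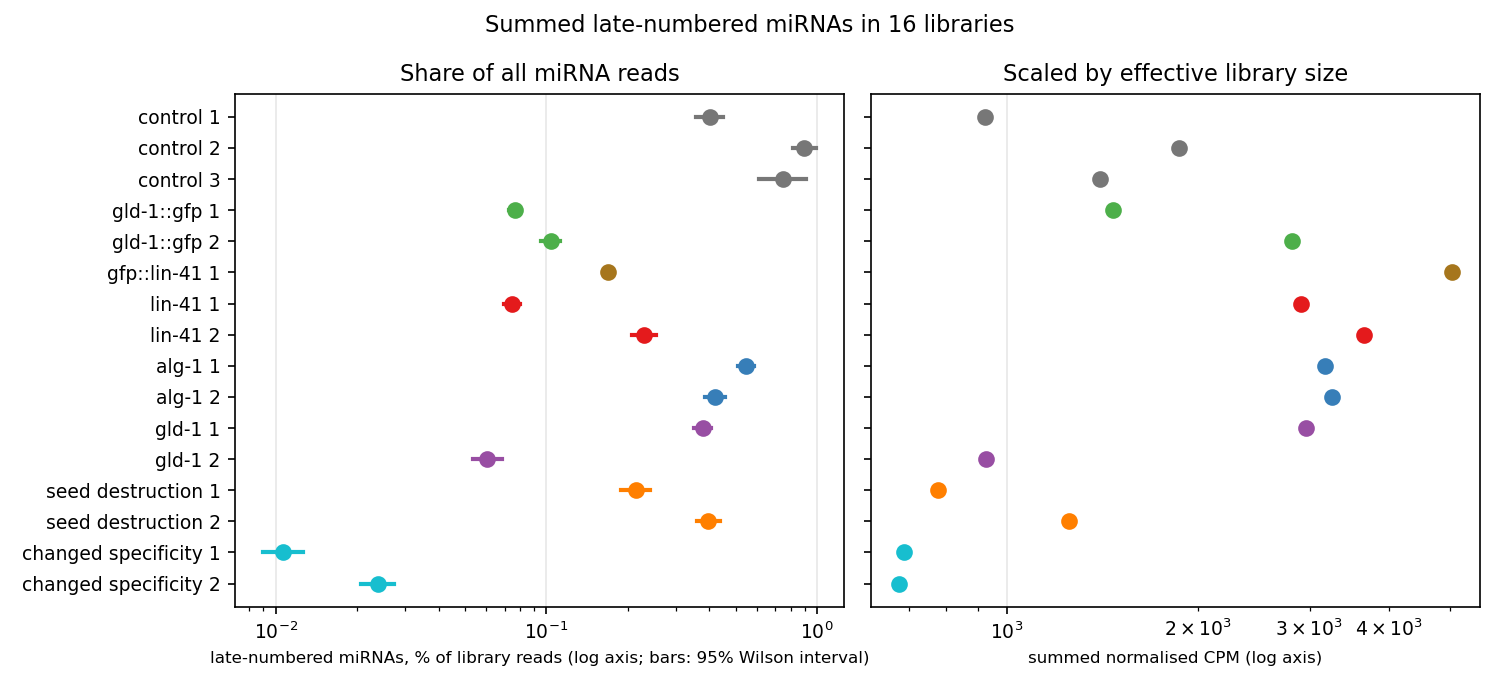
Summed late-numbered miRNAs in each of the 16 libraries, as a percentage of all miRNA reads with 95% Wilson intervals (left, log axis) and as summed normalised CPM (right, log axis). By share the controls (0.401% to 0.896%) stand highest together with alg-1, whereas by normalised CPM gfp::lin-41 (5034), lin-41 and alg-1 stand above the controls.

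A member was called well measured when it had at least 10 reads in every library of a group. This held for 17 members in any group, for 13 of them in a replicated group, and for miR-8191-5p in all 8 groups. Only 2 members were well measured in the shallow controls, against 9 in gld-1::gfp, 8 each in lin-41, gld-1 and seed destruction, 5 in alg-1 and 4 in changed specificity. For the count test, 10 reads were required in at least 2 libraries. This left 112 miRNAs, of which 20 were late-numbered (8.89% of the 225, against 44.0% of the others). A member that passed through the group where it was high had to differ there. Counts and medians over the 20 are therefore given beside those of all tested miRNAs as a description only.

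The composition of each library, the percentage of late-numbered reads that each member took, could be read without any scaling. A member with a large percentage lowers those of the others, and the controls hold late-numbered reads too. Composition alone therefore does not show which miRNAs came down with a transcript. The leading members differed between pulldowns. miR-795-5p and miR-786-3p together held most of the alg-1 reads (42.5% and 45.1% for miR-795-5p, 28.3% in both libraries for miR-786-3p). miR-8187-3p held 25.6% and 33.6% in gld-1::gfp. There miR-8188-5p counted the same reads again, also in the total, so these percentages understate the share of the shared reads. miR-788-5p held 74.4% in gfp::lin-41. miR-1817 held 10.5% to 37.6% in the controls but 0.571% and 1.13% in alg-1. miR-8191-5p was not tied to a group: it held 52.6% in control replicate 2 and 62.7% in gld-1 replicate 1, far more than in their replicates.

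**Figure D2:**
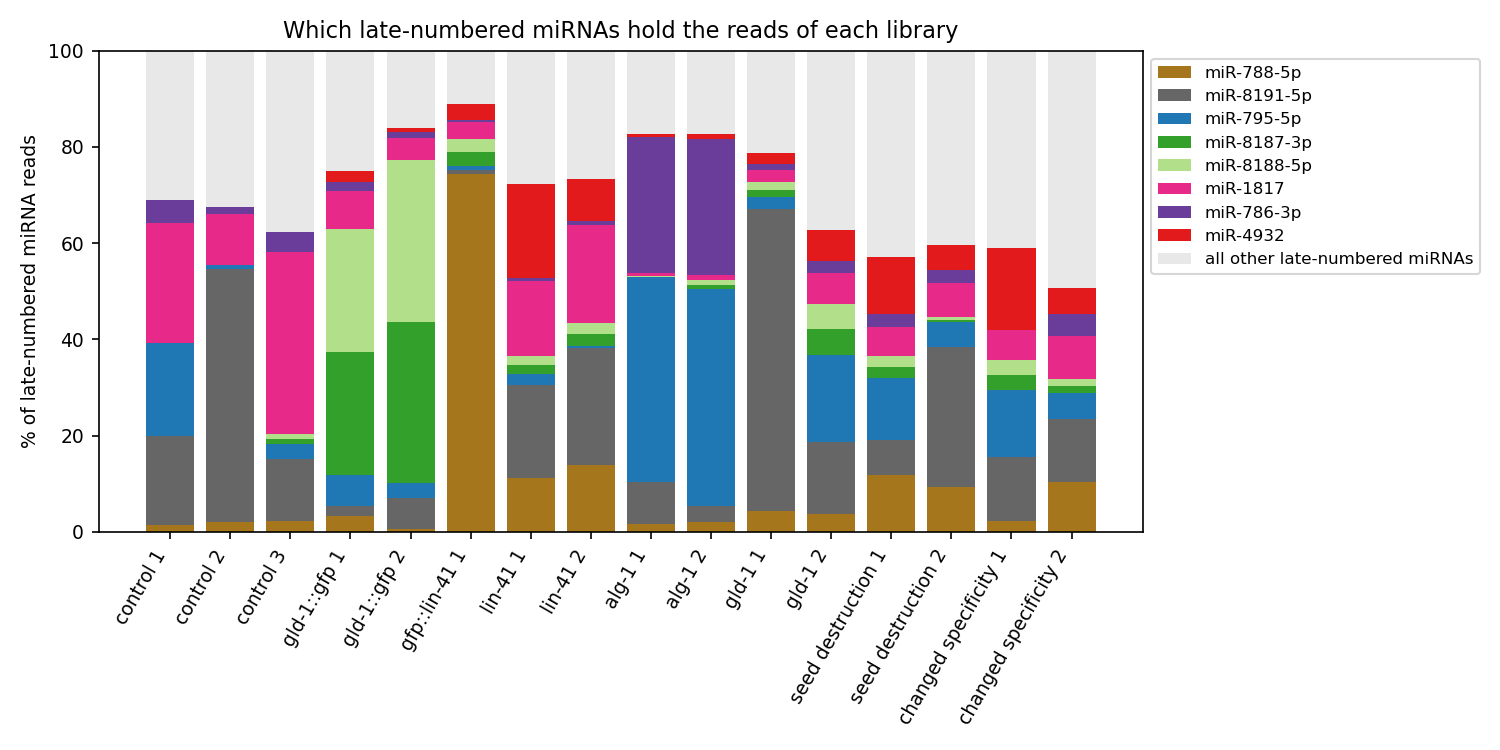
Percentage of late-numbered miRNA reads (vertical axis) held by 8 members in each library (bars). The alg-1 bars are mostly miR-795-5p and miR-786-3p, and the gfp::lin-41 bar mostly miR-788-5p (74.4%). In the gld-1::gfp bars miR-8187-3p holds 25.6% and 33.6% of a total that counts its reads under both names. The part of miR-8188-5p shows the same reads a second time.

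In the alg-1 pulldown, miR-786-3p and miR-795-5p were far above the control, and miR-1817 was far below it. The probes differ along with the target here, so these differences cannot be told apart. miR-786 is known from the posterior intestine, where it sets the defecation rhythm through elo-2, and its gene lies on chromosome X from 7882751 to 7882840 (plus strand, WBcel235), outside protein-coding genes. miR-786-3p had 248 and 150 reads in alg-1 but 14, 6 and 4 reads in the controls. In normalised CPM these were 899 and 923 against 43.6, 29.4 and 60.4. Both alg-1 libraries lay above every other library of the series, the highest of which was control replicate 3. The log2 fold change was 4.41 (SE 0.83, edgeR adjusted p = 2.59e-04).

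miR-795 is among the worm miRNAs that carry the let-7-type seed, the stretch near the 5′ end that pairs with targets. Its gene lies on chromosome I from 12594569 to 12594657 (plus strand), outside protein-coding genes and near mir-794, of the same seed type. miR-795-5p had 372 and 239 reads in alg-1 and 57, 3 and 3 reads in the controls, or 1349 and 1470 against 177, 14.7 and 45.3 normalised CPM. Control replicate 1 stood well above the other controls, but both alg-1 libraries were above all 3. The log2 fold change was 4.06 (SE 0.81, edgeR adjusted p = 4.22e-04). The other late-numbered miRNAs of this seed type, picked after their values were seen, had few reads in alg-1: miR-793 had 12, miR-1821-3p had 9 and miR-794-5p had 0, beside 611 for miR-795-5p.

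miR-1817, from chromosome I between 10869370 and 10869474 (minus strand, no protein-coding gene), moved the other way. It had 5 and 6 reads in alg-1 and 74, 40 and 35 reads in the controls, or 18.1 and 36.9 against 230, 196 and 528 normalised CPM, with no overlap. The log2 fold change was -3.53 (SE 0.84, edgeR adjusted p = 0.00220). The calls for miR-786-3p, miR-795-5p and miR-1817 held under all 12 alternatives that were run, library totals included, where their log2 fold changes were 2.75, 2.47 and -5.30. Within library-name prefixes, a possible batch, alg-1 replicate 1 exceeded control replicate 2 by 4.82 for miR-786-3p and 6.30 for miR-795-5p, and alg-1 replicate 2 exceeded control replicate 3 by 3.77 and 4.80 (log2, 0.5 reads added). For miR-1817 the same differences were -3.31 and -3.74.

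The remaining alg-1 calls rested on few reads. miR-4814-3p, from an intron of W06F12.2, had 8 and 10 reads against 0, 1 and 0, an 8.09-fold ratio on library totals (exact 95% interval 1.28 to 337) and 24.3-fold on effective sizes (edgeR adjusted p = 0.0209). It passed the filter on low counts only through alg-1, lin-41 and gfp::lin-41, so this p is a description. For miR-4932 each alg-1 library had 5 reads and the controls had 0 (edgeR adjusted p = 0.00923). Both calls were lost without alg-1 replicate 2 and with library totals. That of miR-4814-3p was also lost without control replicate 1 and with replicate number as a block. In all, 4 of the 20 tested members were higher in alg-1 than in the control and 1 was lower, where 16.1% and 5.36% of all 112 tested miRNAs were called in these directions. Without alg-1 replicate 2, 3 members were called in either direction, and without control replicate 3, 8 were. The median log2 fold change was 1.42 over the tested members and 0.07 over all tested miRNAs.

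The same miRNAs stood out when alg-1 was compared directly with the other endogenous transcripts, comparisons added after the values were seen. Against lin-41, miR-786-3p was higher by 5.17 (edgeR adjusted p = 4.97e-04) and miR-795-5p by 4.85 (edgeR adjusted p = 5.61e-04) on the log2 scale. miR-1817 was lower, with a log2 fold change of -4.46 (edgeR adjusted p = 5.06e-04). Members called in this comparison were 2 higher and 4 lower, where 7.14% and 9.82% of all tested miRNAs were called. Among the lower, miR-784-5p passed the filter on low counts through the lin-41 libraries alone, so its call is a description. The lower ones also included miR-4932, miR-784-5p and miR-788-5p, whose calls were lost without alg-1 replicate 1, leaving 3 calls. Those of miR-4932 and miR-788-5p were also lost with library totals, and that of miR-788-5p without alg-1 replicate 2 or lin-41 replicate 2. Against gld-1, miR-786-3p was higher by 4.88 (edgeR adjusted p = 4.71e-04) and miR-795-5p by 3.51 (edgeR adjusted p = 0.00571), with 2 members higher and 0 lower, where 9.82% and 8.04% of all were called. The miR-795-5p call against gld-1 was lost without gld-1 replicate 1 (adjusted p = 0.0942), when 1 member remained called. At an unadjusted p under 0.05, 4 members were higher and 0 lower than in gld-1, and the DESeq2 Wald test called 2. As a ratio within a library, miR-786-3p had 11.3 and 8.82 reads per read of miR-785-3p in alg-1, and 0.165 to 0.70 in the other libraries that held both.

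The close neighbour of mir-786 on the same strand is mir-240, which is not late-numbered. Its 3p arm had 41 and 12 reads in alg-1 and 40, 22 and 6 in the controls, and its 5p arm had 9 and 1 reads in alg-1 and 98, 16 and 25 in the controls. By reads, the 3p arm thus overlapped between alg-1 and the controls and the 5p arm was lower in alg-1. mir-8203, annotated over mir-786 on the opposite strand, had no read in any library.

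**Figure D3:**
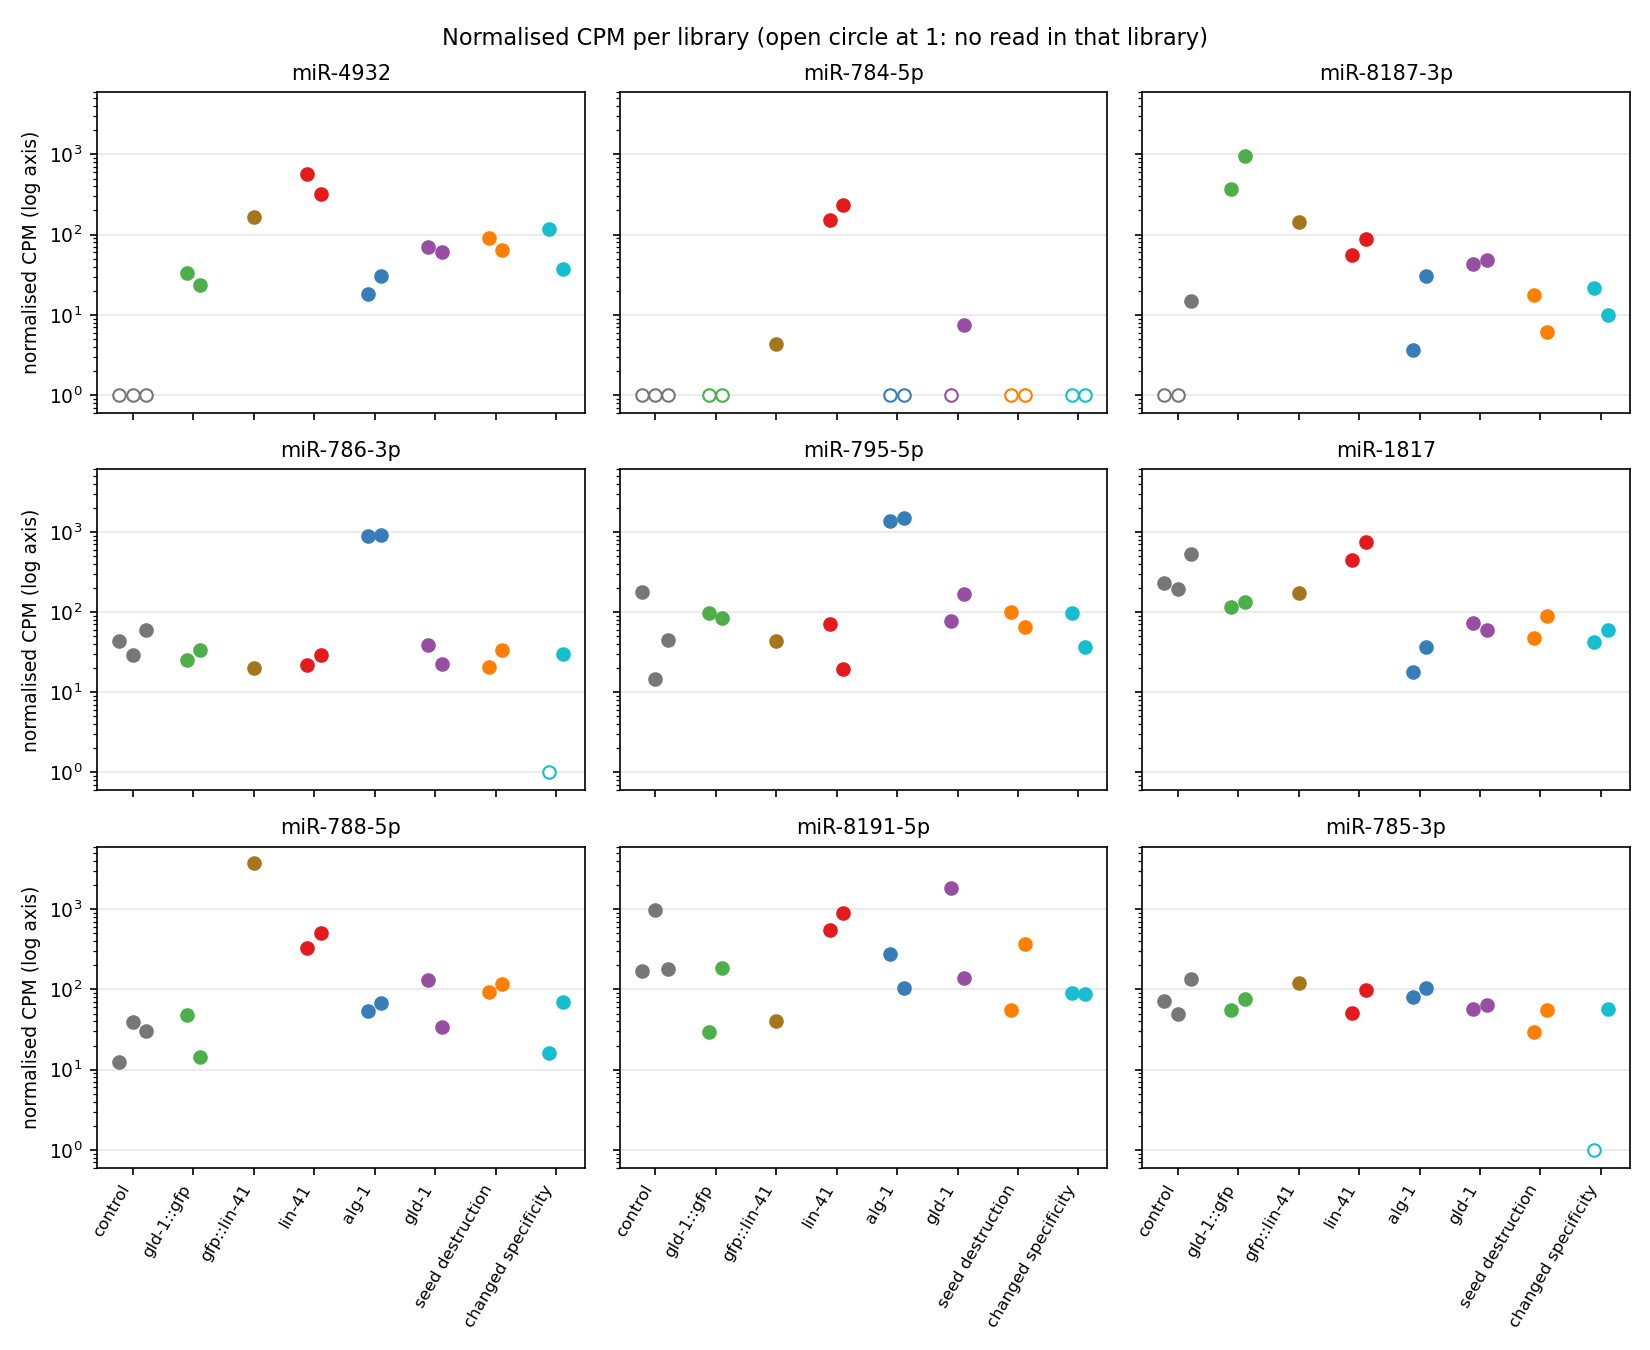
Normalised CPM (log axis) of 9 late-numbered miRNAs in each library, grouped and coloured by pulldown, with open circles at 1 for libraries without a read. miR-786-3p and miR-795-5p are high in both alg-1 libraries, miR-784-5p in both lin-41 libraries and miR-8187-3p in both gld-1::gfp libraries, and miR-4932 is absent from the 3 controls alone.

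In the lin-41 pulldown, miR-4932 and miR-784-5p had reads in both libraries and none in the control. miR-4932 comes from chromosome I between 9512307 and 9512416 (plus strand), outside protein-coding genes. It had 154 and 33 reads in lin-41 and 115 in gfp::lin-41, and none in the 128995 reads of the pooled controls. In normalised CPM the lin-41 libraries had 568 and 322, above every other library. With the pooled controls set to 3 reads, the level in lin-41 was at least 87.7-fold higher on effective sizes and at least 7.48-fold higher on library totals (edgeR adjusted p = 3.40e-06), a call that held under all 12 alternatives. For gfp::lin-41 the bounds were at least 32.5-fold and at least 2.38-fold, without a test.

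miR-784-5p, from chromosome X between 8074922 and 8075009 (minus strand, no protein-coding gene), was nearly confined to lin-41. It had 41 and 24 reads there, 3 reads in gfp::lin-41, 2 reads in gld-1 replicate 2 and none in the other 12 libraries. The lin-41 libraries stood apart from all others at 151 and 234 normalised CPM. Its level was at least 38.0-fold above the control on effective sizes and at least 3.99-fold on library totals (edgeR adjusted p = 8.87e-04). It passed the filter on low counts through the lin-41 libraries alone, so this p is a description, and without either of them it could not be tested. Under the 10 alternatives that gave a value the call held. In gfp::lin-41 the 3 reads of miR-784-5p corresponded to 4.30 normalised CPM, although this library was the deepest of the series. Both libraries target lin-41, but they differ in strain, probes and replication, so these differences cannot be told apart.

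Higher in lin-41 were also miR-788-5p, miR-4814-3p and the reads shared by miR-8187-3p and miR-8188-5p. miR-788-5p, from chromosome X between 8485294 and 8485371 (minus strand, no protein-coding gene), had 89 and 52 reads against 4, 8 and 2, or 328 and 507 against 12.5, 39.2 and 30.2 normalised CPM (log2 fold change 3.98, SE 0.80, edgeR adjusted p = 5.78e-04). miR-4814-3p had 25 and 5 reads against 0, 1 and 0, a ratio of 47.5 on effective sizes (exact 95% interval 7.89 to 1937) and 3.18 on library totals (0.528 to 130), with edgeR adjusted p = 0.00710. As it passed the filter only through lin-41, gfp::lin-41 and alg-1, this p is a description. miR-8187-3p had 15 and 9 reads against 0, 0 and 1, a ratio of 38.0 on effective sizes (exact 95% interval 6.19 to 1562) and 2.54 on library totals (0.414 to 104), with edgeR adjusted p = 0.00710. These 4 calls were lost with library totals, and that of miR-4814-3p also without lin-41 replicate 1. Of the 20 tested members 6 were higher and 0 lower, miR-8187-3p and miR-8188-5p counted as 2 names although their reads are shared, where 13.4% and 4.46% of all tested miRNAs were called. At an unadjusted p under 0.05, 7 members were higher and 0 lower, and DESeq2 called 6 in either direction. The medians were 0.80 over the tested members and -0.05 over all (log2).

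Measured against gld-1 instead of the control, lin-41 held more miR-784-5p, miR-1817 and miR-4932. The pooled ratio of miR-784-5p was 43.2 on effective sizes (exact 95% interval 11.5 to 364) and 15.7 on library totals (4.18 to 133), with edgeR adjusted p = 0.00857. As miR-784-5p passed the filter on low counts through the lin-41 libraries alone, this p too is a description. The log2 fold change was 3.14 for miR-1817 (SE 0.82, edgeR adjusted p = 0.00659) and 2.78 for miR-4932 (edgeR adjusted p = 0.0309). Thus 3 members were higher and 0 lower, where 8.04% and 7.14% of all were called. The calls of miR-1817 and miR-4932 were lost with library totals, and that of miR-4932 also without the filter on low counts. All 3 calls were lost without gld-1 replicate 1, that of miR-784-5p included. The miR-1817 call was also lost without gld-1 replicate 2 or lin-41 replicate 2. That of miR-4932 was lost without any single replicate of either group. Without either lin-41 library miR-784-5p could not be tested. The medians were 0.59 over the tested members and -0.09 over all.

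The largest single count among late-numbered miRNAs was that of miR-788-5p in gfp::lin-41. It had 2613 reads there, against at most 89 reads in any other library, all of them shallower. In RPM (reads scaled to a common total of miRNA reads) it had 1255 there. The next highest were seed destruction replicate 2 (370) and lin-41 replicate 2 (318). The other arm of the hairpin, miR-788-3p, had 54 reads in gfp::lin-41. The 5p arm therefore made up 98.0% of 2667 reads (95% Wilson interval 97.4 to 98.4), against 55.8% of 652 reads (52.0 to 59.6) over the other 15 libraries. In lin-41 it made up 73.6% and 70.3%. The lowest value was 15.0% in gld-1::gfp replicate 2, and control replicate 1 had 100% of only 4 reads. The arm ratio does not depend on the scaling of a library, but gfp::lin-41 has no replicate, so the excess of the 5p arm was measured in 1 library. miR-788-3p itself was not called in lin-41 (log2 fold change 2.42, edgeR adjusted p = 0.133).

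In the gld-1::gfp pulldown a pair of names rose together. miR-8187-3p had 372 and 199 reads and miR-8188-5p had 371 and 199. Over the series their counts were equal in 15 of 16 libraries and differed by 1 read in the other, with 739 and 738 reads in total. mir-8187 is annotated on chromosome I from 14368397 to 14368473 (minus strand), in an intron of ech-7 on the same strand, and mir-8188 on chromosome II from 11840444 to 11840500 (minus strand), outside protein-coding genes. The reads of the pair cannot be told apart, so they count as 1 observation. The next highest library was gfp::lin-41 with 99 reads, and the controls had 0, 0 and 1. In normalised CPM, gld-1::gfp had 376 and 943, gfp::lin-41 had 142 and the other libraries had at most 87.7.

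The ratio of gld-1::gfp to the pooled controls was 281 on effective sizes (exact 95% interval 50.3 to 11135) and 29.8 on library totals (5.33 to 1181). The log2 fold change was 8.15 (SE 1.23, edgeR adjusted p = 1.23e-05), and the call held under the 11 alternatives that gave an adjusted p. Within prefixes, gld-1::gfp replicate 1 exceeded control replicate 1 by 7.92, and replicate 2 exceeded control replicate 3 by 5.38 (log2, 0.5 reads added). Against endogenous gld-1, where miR-8187-3p had 10 and 13 reads, the log2 fold change was 3.82 (SE 1.01, edgeR adjusted p = 0.0114). In that comparison 2 names of the 20, the shared pair, were higher and 0 lower, where 5.36% and 6.25% of all were called. The call was lost with library totals, without gld-1::gfp replicate 2, and without either gld-1 replicate. The count of calls fell to 0 without gld-1::gfp replicate 2 or gld-1 replicate 1 and to 1 without gld-1 replicate 2, and the medians were -0.22 over the tested members and 0.07 over all. The gld-1::gfp worms also differ from N2 in strain and transgene and were probed for gfp, and these differences cannot be told apart from the target.

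miR-5551-5p was also higher in gld-1::gfp than in the control. It comes from chromosome IV between 9757508 and 9757616 (plus strand, no protein-coding gene) and had 39 and 11 reads there, 36 in gfp::lin-41, and at most 3 elsewhere. The controls had none, which placed gld-1::gfp at least 9.03-fold higher on effective sizes (edgeR adjusted p = 0.0216). It passed the filter on low counts only through gld-1::gfp and gfp::lin-41. On library totals the pooled level lay below the floor of 3 control reads, and the call was lost. miR-5549-3p had a like range but disagreed between replicates, with 38 and 0 reads in gld-1::gfp, 30 in gfp::lin-41 and none in the controls (edgeR adjusted p = 0.105). miR-4932 had 33 and 5 reads in gld-1::gfp, at least 5.63-fold above the control on effective sizes (edgeR adjusted p = 0.00914), and this call too was lost with library totals (adjusted p = 0.111). With it, 4 of the 20 names, the shared pair counted as 2, were higher in gld-1::gfp and 0 lower, where 11.6% and 0.893% of all were called. At an unadjusted p under 0.05, 5 were higher and 0 lower, and DESeq2 gave no adjusted p for these members. The medians were 0.21 over the tested members and -0.30 over all.

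Endogenous gld-1 held miR-4932 (16 reads in each library) and the miR-8187-3p and miR-8188-5p reads (10 and 13) above the control. For miR-4932 the bounds were at least 12.8-fold on effective sizes and at least 2.74-fold on library totals (edgeR adjusted p = 6.90e-04). For miR-8187-3p the ratio was 27.4 on effective sizes (exact 95% interval 4.44 to 1128) and 5.03 on library totals (0.817 to 207), with edgeR adjusted p = 0.0190. That call was lost with library totals and without control replicate 1, control replicate 2 or gld-1 replicate 2. Of the gld-1 libraries, replicate 2 alone shares a name prefix, a possible batch, with a control (replicate 3). Within it the miR-8187-3p difference was 1.16 on effective sizes (log2, reads added as for gld-1::gfp), against a fitted 4.33. On library totals it was -1.86. The same differences were 3.04 and 0.0120 for miR-4932, and -3.11 and -6.14 for miR-1817. miR-1817 had 17 and 16 reads, or 73.6 and 60.1 normalised CPM, below all controls (log2 fold change -2.21, edgeR adjusted p = 0.0373). This call was lost without the filter on low counts, with replicate number as a block, and without gld-1 replicate 1, gld-1 replicate 2 or control replicate 3. In all 3 names, the shared pair counted as 2, were higher and 1 lower, where 15.2% and 7.14% of all were called, with medians of 0.85 over the tested members and 0.20 over all. The count of calls was 2 without control replicate 1 or control replicate 2 and 1 without gld-1 replicate 2.

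No late-numbered miRNA passed the edgeR test between an edited and the unedited gld-1 transcript. In seed destruction against gld-1, 0 of the 20 were higher and 0 lower, where 0% and 1.79% of all tested miRNAs were called. At an unadjusted p under 0.05, 1 member was higher and 0 lower, and DESeq2 called 0. In changed specificity against gld-1, 0 were higher and 0 lower, where 1.79% and 0.893% of all were called. At an unadjusted p under 0.05, 0 were higher and 2 lower, and DESeq2 called 0. Without gld-1 replicate 2, 1 member was called. The medians over the tested members were -0.22 and -0.86, and over all -0.15 and -0.37. For miR-8187-3p the fitted log2 changes were -1.90 and -1.58 (edgeR adjusted p = 0.742 and 0.757), on 6 and 2 reads in seed destruction and 4 and 3 in changed specificity.

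Against the control, both edited pulldowns kept the pattern of miR-4932 and miR-1817 in gld-1. No library of the edited pulldowns shares its name prefix with a control, so no difference within a prefix could be taken here. miR-4932 had 31 and 21 reads in seed destruction, at least 15.4-fold higher on effective sizes and at least 9.81-fold on library totals (edgeR adjusted p = 5.68e-04). It had 22 and 11 reads in changed specificity, at least 15.2-fold higher on effective sizes (edgeR adjusted p = 5.31e-04), but below the floor of 3 control reads on library totals, where the call was lost. miR-1817 had log2 fold changes of -2.18 in seed destruction (edgeR adjusted p = 0.0424) and -2.57 in changed specificity (edgeR adjusted p = 0.0166). In both edited pulldowns its call was lost without either of their replicates and with replicate number as a block. In seed destruction it was also lost without control replicate 3, with library totals, without the filter and with summed precursor rows. Without control replicate 3, changed specificity had 5 calls, and seed destruction had 1 call without that control or either of its own replicates. In each of these comparisons 1 member was higher and 1 lower. Of all tested miRNAs 11.6% and 6.25% were called in seed destruction, and 14.3% and 7.14% in changed specificity. The medians were 0.82 and -0.18 over the tested members, and 0.00 and -0.21 over all.

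**Figure D4:**
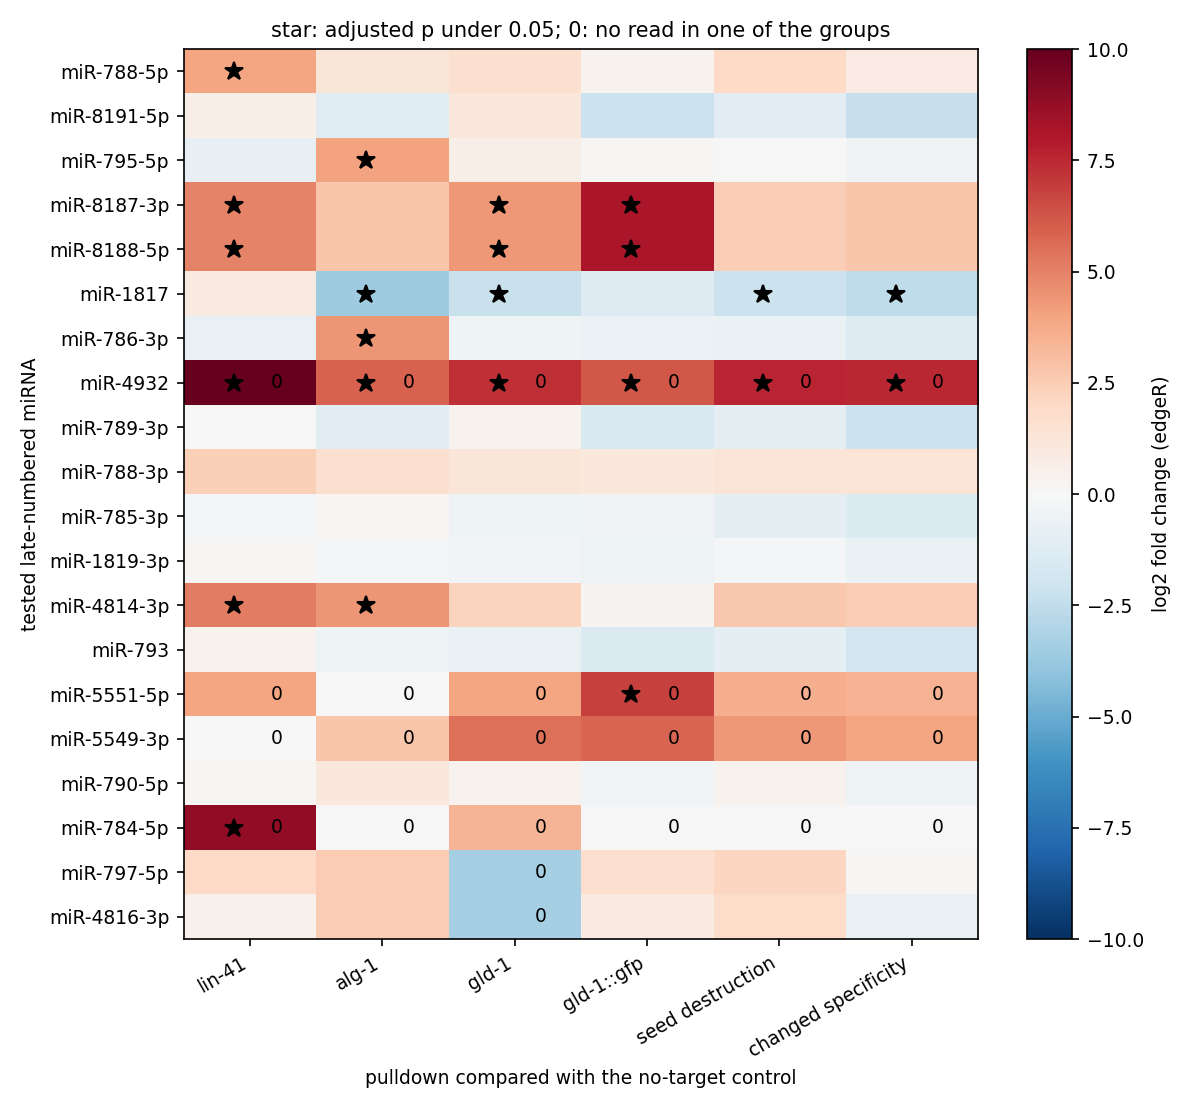
Log2 fold change against the no-target control (colour, scale ending at 10 in each direction) of the 20 tested late-numbered miRNAs (vertical axis) in 6 pulldowns (horizontal axis). Stars mark an edgeR adjusted p under 0.05 and a 0 marks a group without reads, whose colour is no bound; only miR-4932 carries a star in all 6 columns, and all of these share the same 3 controls.

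miR-4932 was thus called against the control in all 6 replicated pulldowns, which share the 3 control libraries. The edited pulldowns share no name prefix, a possible batch, with any of these controls. By the highest library of each group, the order of miR-4932 in normalised CPM was lin-41 (568 and 322), gfp::lin-41 (165), changed specificity (117 and 37.0), seed destruction (91.8 and 64.8), gld-1 (69.3 and 60.1), gld-1::gfp (33.3 and 23.7) and alg-1 (18.1 and 30.8). Changed specificity, seed destruction and gld-1 overlapped, as did gld-1::gfp and alg-1, and only lin-41 stood above all others. Absence from the control rested on 128995 reads, so that 3 reads there correspond to 23.3 RPM. The levels in gld-1::gfp (17.4 and 8.76 RPM) and changed specificity (18.2 and 13.0) lay below this, and would not have been detectable at the depth of the controls on library totals.

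Several abundant members were called in no comparison of the edgeR fit on effective library sizes. miR-8191-5p, from an intron of C09B9.85 on chromosome IV (5022928 to 5022995, minus strand), ranged from 12 to 428 reads and varied widely within groups. It had 55, 201 and 12 reads in the controls, 428 and 37 in gld-1, and 19 and 118 in seed destruction. Its log2 fold change in gld-1 against the control was 1.143 (SE 1.12, edgeR adjusted p = 0.499) and turned to -1.69 without gld-1 replicate 1. Both changed specificity libraries lay below all control and gld-1 libraries. The mean was 89.0 normalised CPM, against 445 in the control (edgeR adjusted p = 0.220) and 996 in gld-1 (edgeR adjusted p = 0.376). miR-789-3p, whose 2 precursors are both on chromosome IV and share reads, was uneven in the same libraries, with 54 reads in control replicate 2, 78 in gld-1 replicate 1 and 40 in seed destruction replicate 2. In the replicates of these groups it had 17 and 8, 8, and 10 reads. In changed specificity miR-789-3p also lay below all controls (mean 32.5 against 146 normalised CPM, edgeR adjusted p = 0.165).

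miR-785-3p, from chromosome X (3004668 to 3004761, plus strand), varied little between pulldowns of unedited transcripts. It had 71.6, 48.9 and 136 normalised CPM in the controls and 51.6 to 122 in the others. In seed destruction it had 29.6 and 55.6, and in changed specificity 0 and 57.1. Its log2 fold change in alg-1 was 0.18 (SE 0.90, edgeR adjusted p = 0.917). miR-1819-3p had between 1 and 31 reads and log2 fold changes against the control from -0.70 to 0.10, none of them called.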

How the data were processed

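Small RNA of 16 pulldown elutions was sequenced with a poly(A)-tailing kit. Per the labels and the study's methods, the authors trimmed reads with cutadapt 1.14, discarded Escherichia coli reads with Bowtie2 2.3.3.1, and counted known miRNAs with miRDeep2. The deposited values are raw read counts per mature miRNA and precursor. Reads of near-identical miRNAs can be counted under several names. A miRNA with several precursors was counted with its largest row. Groups came from sample titles.

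The members, lists and tests were chosen with earlier results of these data known. Named members are miR-8187-3p with its pair miR-8188-5p, miR-4932 and miR-784-5p, the well measured members, those called, and the leader of each number band. Counts were fitted with edgeR 4.0.16 (R 4.3.3; TMM, robust quasi-likelihood F test, 1 model over 16 libraries, 112 miRNAs, common biological coefficient of variation 0.532), with Benjamini-Hochberg adjusted p under 0.05 as a call. The SE was taken as the size of the log2 fold change over the root of F. gfp::lin-41 (1 library) has no test. Replicates differed beyond counting noise (chi-square per degree of freedom 98.7 to 511 over 9 pairs). Alternatives were RLE size factors, library totals, no filter, DESeq2 1.42.0, summed precursor rows, a replicate block, name prefix as a factor, the shared pair counted once, and each replicate left out. No sequence is printed, since no sequence table was used here.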

Additional observations from a re-analysis of the deposited data

How the results depend on the processing

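The numbers of late-numbered miRNAs called (either direction) moved most with library totals as the only scaling. Against the control they became 12 in gld-1::gfp, 11 in changed specificity, 3 in alg-1 and 1 in seed destruction, and against gld-1 they became 1 in lin-41, 1 in gld-1::gfp and 5 in changed specificity. With name prefix as a factor there were 5 in seed destruction and 4 in changed specificity against the control, and 2 in each against gld-1. Without the filter, and with summed precursor rows, seed destruction against the control had 1 call. Counting the pair miR-8187-3p and miR-8188-5p once lowered the summed share in gld-1::gfp to 0.0630%. Leaving out each replicate in turn gave, against the control, 4 to 7 calls in lin-41, 3 to 8 in alg-1, 1 to 3 in gld-1, 1 to 5 in changed specificity, 1 to 2 in seed destruction and 4 to 5 in gld-1::gfp. Against gld-1 it gave 0 to 1 in lin-41, 0 to 1 in changed specificity, 0 to 0 in seed destruction, 0 to 2 in gld-1::gfp and 1 to 2 in alg-1, and for alg-1 against lin-41 it gave 3 to 5. The fits without a replicate have fewer libraries, and an arm left with 1 library is assumed to vary like the others.

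Directions that turned were all of uncalled members. With library totals the log2 fold change against the control was -1.06 for miR-788-3p in lin-41, -1.55 for miR-785-3p in alg-1 and -0.82 for miR-8191-5p in gld-1. With a replicate left out it ranged from -0.34 (alg-1 replicate 2) to 0.59 for miR-785-3p, with -0.10 without control replicate 2. For miR-8191-5p it was -0.74 with name prefix, and with a replicate left out it ranged from -1.69 (gld-1 replicate 1) to 2.50. The cause of these shifts was not tested. Replicate numbers did not pair the libraries: deviations of same-numbered libraries had a mean correlation of -0.03 over 42 pairs, and 12 pairs exceeded 0.1. With the replicate block there were 7 calls in lin-41, 5 in alg-1, 3 in gld-1, 4 in gld-1::gfp and 2 in each edited pulldown against the control. With this block the adjusted p against the control was 0.0534 for miR-4814-3p in alg-1, and for miR-1817 it was 0.145 in gld-1, 0.144 in seed destruction and 0.0677 in changed specificity. The DESeq2 count for gld-1::gfp against the control could not be given, since it left no adjusted p for any late-numbered miRNA. Depth limits all of this: the controls held 128995 reads together, so a miRNA below 23.3 RPM there would be missed.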
